A study of Arabidopsis thaliana with 3 samples.

Results

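Transcripts of salicylic acid synthesis, perception and response were followed in the Arabidopsis thaliana mutant pfd4 after a day in the cold. The 10 genes were chosen by locus code: ICS1, EDS5, EDS1, PAD4, SAG101, NPR1, NIMIN1, PR1, PR2 and PR5. All 10 were found among the 29030 loci of the array, on 19 of its 38613 locus spots. PR1 was higher in pfd4 than in the wild type on every array, with a mean of 1.76 ± 0.43 (SD, n = 3) on the log2 scale, and ICS1 followed at 0.84 ± 0.74. The EDS1, PAD4 and SAG101 transcripts, which form one signalling node, were above 0 on array 2 and below 0 on array 3. NPR1 was slightly below 0 on all 3 arrays. None of the 10 passed the test over all loci.

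The study compared pfd4, a mutant in a gene for a subunit of the cytosolic chaperone prefoldin, with its wild type Col-0. Both genotypes were 2 weeks old, grown at 22 °C under a photoperiod of 16 h light to 8 h dark, and then moved to 4 °C for 24 h. Total RNA of plants of both genotypes was hybridised to the same array, on 3 arrays that the labels call biological replicates. The sample descriptions give all 3 arrays the same replicate number, so the numbers used here come from the titles. The labels name the mutant pfd4 without an allele, no other agent was applied, and no plants kept in the warm were compared here, so the values set genotypes in the cold against each other and are not a response to cold.

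Each value is the authors' normalized log2 ratio of pfd4 over Col-0 on one array, so that 1 means a 2-fold higher transcript in pfd4. On arrays 1 and 2 the pfd4 RNA carried the dye Cy3 and on array 3 the dye Hyper5. The titles put Col-0 before pfd4, but the labels do not give the numerator. The direction is called likely because PFD4 itself lay at -3.08, -2.71 and -2.17 on the 3 arrays, and for that reason PFD4 cannot serve to check the labels. The ratios of array 2 spread more widely over loci (SD 0.55) than those of arrays 1 (0.36) and 3 (0.37), and over all loci array 3 correlated with array 1 at r = -0.27 (rho = -0.25) and with array 2 at r = -0.04 (rho = -0.07), against r = 0.40 (rho = 0.36) between arrays 1 and 2. These are correlations across genes, which are not independent replicates. A ratio holds no level, so neither the brightness of a spot nor the tissue make-up of the plants could be checked. In bulk RNA, fewer cells of a type and less RNA per cell cannot be told apart. The number of arrays limits the precision.

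Salicylic acid is a phenolic hormone of plant defence. Arabidopsis makes most of it in chloroplasts from chorismate by way of isochorismate, and exports the precursor to the cytosol, where it is finished. EDS1 pairs with PAD4 or with SAG101 to relay signals of immune receptors and to raise salicylic acid, and NPR1 binds the hormone and switches on the pathogenesis-related (PR) genes together with TGA transcription factors. The pathway is also tied to temperature: CAMTA transcription factors hold its synthesis genes down in the warm, and long cold lifts that repression.

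**Figure D1:**
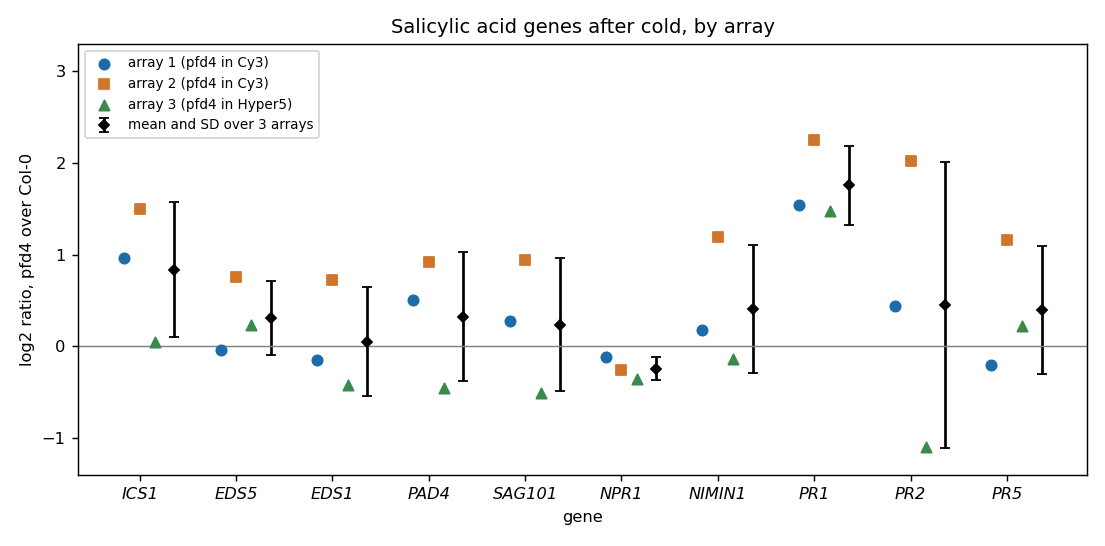
Log2 ratio of pfd4 over Col-0 (vertical axis) for the 10 genes (horizontal axis), with 1 point per array and the mean with its SD over 3 arrays as a black diamond with bars. PR1 lies at 1.48 or more on every array, while for 9 of the 10 genes the highest point is array 2.

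Synthesis and export came first in the pathway. ICS1 (AT1G74710) encodes isochorismate synthase, which commits chorismate to salicylic acid. Its log2 ratios were 0.965, 1.505 and 0.045 on arrays 1, 2 and 3. It was thus well above 0 on both arrays with pfd4 in Cy3 and at about 0 on the array with pfd4 in Hyper5. The mean of 0.84 is a 1.79-fold higher level, with a limma 95% confidence interval from 0.05 to 1.63 (unadjusted p = 0.042 and adjusted p = 0.887 in limma). Its 2 spots gave means of 0.86 and 0.82, and they lay within 0.37 of each other on every array.

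EDS5 (AT4G39030) encodes the transporter that carries the isochorismate product out of the chloroplast. It had -0.04, 0.755 and 0.23, with a mean of 0.315 ± 0.40 (SD, n = 3) and an interval from -0.19 to 0.82 (adjusted p = 0.888 in limma). Array 2 gave the highest value, array 1 lay at about 0 and array 3 slightly above it, and the mean was smaller than the SD over the arrays.

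The genes of the EDS1 node changed sign between arrays. EDS1 (AT3G48090), a lipase-like protein that relays signals of immune receptors, had -0.15, 0.72 and -0.42 on arrays 1, 2 and 3. PAD4 (AT3G52430), its partner in basal resistance, had 0.50, 0.92 and -0.45. SAG101 (AT5G14930), the alternative partner, which was first named for leaf senescence, had 0.28, 0.95 and -0.51. All 3 were above 0 on array 2 and below 0 on array 3, and on array 1 PAD4 and SAG101 were above 0 and EDS1 below. Their means were 0.05 ± 0.60 for EDS1, 0.32 ± 0.70 for PAD4 and 0.24 ± 0.73 for SAG101 (SD, n = 3). The intervals all held 0, from -0.61 to 0.72, from -0.44 to 1.08 and from -0.55 to 1.02 (adjusted p = 0.987, 0.92 and 0.94 in limma). A p that misses the threshold does not show equal levels. Without replicate 2 the means of EDS1 and SAG101 turned to -0.28 and -0.115, and that of PAD4 was 0.03.

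Separate spots of the node genes did not move alike. The 3 spots of EDS1 lay within 0.39 of each other on every array. One PAD4 spot had -0.05, 0.42 and -0.03, while the others had 0.86, 1.07 and -0.72, and 0.70, 1.27 and -0.60. The first thus stayed nearer to 0 on each array than the other two, although all carry the same transcript code. For SAG101 the spots carry different transcript codes. The spot for transcript 1 had 0.12, 0.29 and 0, that for transcript 2 had 0.54, 1.21 and -0.59, and that for transcript 3 had 0.18, 1.34 and -0.94. Here too the spot nearest to 0 on array 2 was nearest to 0 on arrays 1 and 3, and the gap between spots reached 1.05 for SAG101 and 0.91 for PAD4.

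**Figure D2:**
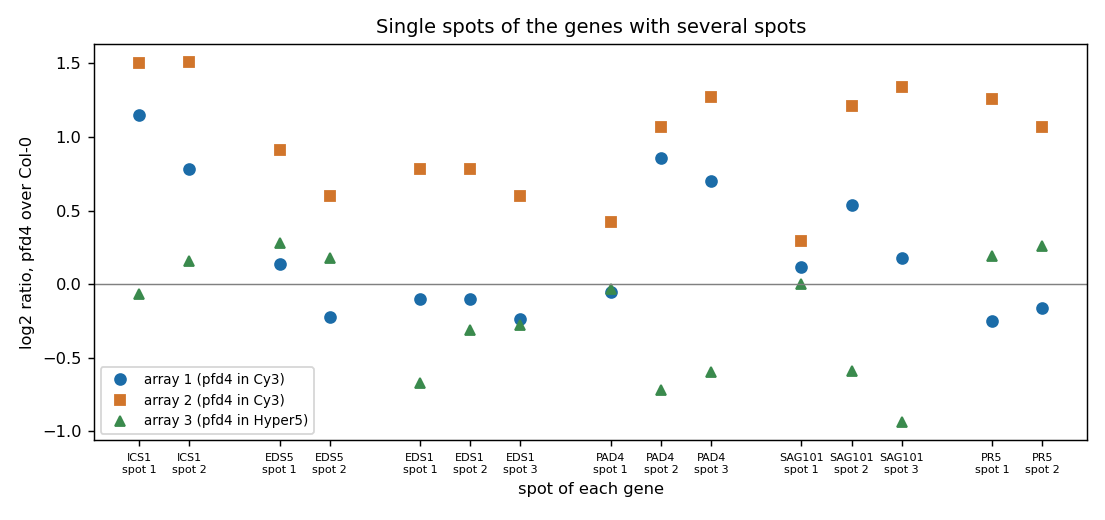
Log2 ratio of pfd4 over Col-0 (vertical axis) at each single spot (horizontal axis) of the 6 genes with several spots, with 1 point per array. Spots of ICS1, EDS5, EDS1 and PR5 lie within 0.39 of each other on every array, while spot 1 of PAD4 and of SAG101 stays nearer to 0 than spots 2 and 3.

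Perception was read from NPR1 and NIMIN1. NPR1 (AT1G64280), a salicylic acid receptor and coactivator of PR genes, had -0.11, -0.26 and -0.36. All 3 values were below 0 and close together, with a mean of -0.24 ± 0.13 (SD, n = 3), a 1.18-fold lower level. The interval ran from -0.57 to 0.09 (unadjusted p = 0.114 and adjusted p = 0.887 in limma). It held 0, is not adjusted for the number of loci and rests on 1 spot. NIMIN1 (AT1G02450), a small protein that binds NPR1 and restrains its action on PR1, had 0.18, 1.19 and -0.14. It was more than 2-fold higher on array 2 and within 0.18 of 0 on the others, with a mean of 0.41 ± 0.69 and an interval from -0.34 to 1.16 (adjusted p = 0.889 in limma).

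The PR genes, the usual readout of the pathway, went apart. PR1 (AT2G14610), a small secreted protein that binds sterols, had 1.54, 2.25 and 1.48. Each array by itself showed at least a 2-fold higher level, as was the case for 0.0172% of all loci, and PR1 was the highest of the 10 genes on 3 of 3 arrays. The mean of 1.76 is a 3.38-fold higher level, with an interval from 1.23 to 2.28 (unadjusted p = 0.000434 and adjusted p = 0.887 in limma). PR1 has only 1 spot, and its 3 values span 0.77.

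PR2 (AT3G57260), a beta-1,3-glucanase that attacks fungal walls, had 0.44, 2.02 and -1.1. This was the widest range of the 10 genes, 3.12, with a mean of 0.45 ± 1.56 (SD, n = 3) and an interval from -1.12 to 2.03 (adjusted p = 0.942 in limma). On array 2 PR2 stood nearly as high as PR1, and on array 3 it was the lowest of the 10. Without replicate 2 its mean was -0.33. PR5 (AT1G75040), a thaumatin-like protein, had -0.205, 1.165 and 0.225, with a mean of 0.395 ± 0.70 and an interval from -0.36 to 1.15 (adjusted p = 0.893 in limma). Its 2 spots lay within 0.19 of each other on every array, so the spread of PR5 came with the arrays and not with the spots.

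Counted together, 9 of the 10 means were above 0, where 51% of all loci had a mean above 0, and the median of the 10 means was 0.36 against 0.01 over all loci. No gene of the 10 passed an adjusted p of 0.05 in limma in either direction, and neither did any other locus (0% higher and 0% lower). PFD4 itself was among the loci that did not pass, with a mean of -2.65 (unadjusted p = 8.26e-05 and adjusted p = 0.887 in limma). At an unadjusted p under 0.05, 2 of the 10 were higher, PR1 and ICS1, against 2.14% of all loci, and none was lower, against 2.58%. That count of the 10 was 1, PR1, without replicate 1 and without replicate 2, and 4 without replicate 3, when PR2 (unadjusted p = 0.0452) and PAD4 (unadjusted p = 0.018) joined in limma. With the sign of array 3 turned it was 4 as well, namely PR2, ICS1, PAD4 and SAG101, and PR1 was not among them (unadjusted p = 0.34 in limma). The number among all 29030 loci moved too. It was 1372 with all arrays, 1103 without replicate 1, 476 without replicate 2, 3724 without replicate 3 and 3878 with array 3 turned. The counts of the 10 are to be read beside these. Above 0 on all 3 arrays were PR1 and ICS1, where 12.3% of loci were. ICS1 held this place by the mean of spots that lay at -0.07 and 0.16 on array 3, and it gave way to EDS5 when a locus was read from its first spot. Below 0 on all 3 was NPR1 alone, where 12.1% were. A mean at least 2-fold higher was found for 1 of the 10, PR1, against 0.203% of loci. As the genes were chosen with earlier results of these arrays known, the shares are a description of the list and carry no test.

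Ordered by mean, the genes ran from PR1 (1.76) and ICS1 (0.84) through PR2 (0.45), NIMIN1 (0.41), PR5 (0.395), PAD4 (0.32), EDS5 (0.315), SAG101 (0.24) and EDS1 (0.05) to NPR1 (-0.24). The order rests on the likely direction of array 3: with its sign turned, PR2 at 1.19 and ICS1 at 0.81 stood above PR1 at 0.77. PR1 exceeded ICS1, the next in order, on every array, by 0.575, 0.745 and 1.435, or 0.92 ± 0.46 (SD, n = 3). For the other 8 pairs of neighbours the mean difference within an array was smaller than its SD over the arrays, and none kept its order on all 3.

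The arrays were then read one at a time. On array 2, 9 of the 10 genes were above 0, against 51% of all loci, and 5 were at least 2-fold higher (PR1, PR2, ICS1, NIMIN1 and PR5), against 3.67%. On array 1, 6 were above 0, against 48%, and PR1 alone was at least 2-fold higher, against 1.22%. On array 3, 4 were above 0 (PR1, EDS5, PR5 and ICS1), against 50.2%, and again only PR1 was at least 2-fold higher, against 0.617%. Array 2 held the highest value of 9 of the 10 genes, where this was so for 34.5% of loci, and array 3 the lowest of 8, against 35.4%. The median of the 10 genes was 0.23, 1.06 and -0.25 on the 3 arrays. Without replicate 2 the median of their means was 0.02, with 6 means above 0, and without replicate 3 it was 0.65, with 9. PR1 kept 1.51 and 1.895 in these fits, and ICS1 0.505 and 1.235.

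Ranks take out the wider spread of array 2. PR1 stood at percentile 99.8, 99.9 and 99.9 among all loci on arrays 1, 2 and 3. ICS1 stood at 98.7, 99.1 and 56.1. PR2 fell from 90.5 and 99.8 to 1.05 on array 3. EDS1, PAD4 and SAG101 stood at 92.4, 95.5 and 95.8 on array 2 and at 10.3, 9.21 and 7.44 on array 3. At or above the 90th percentile were 9 of the 10 genes on array 2 (9.92% of loci), 4 on array 1 (10% of loci) and 1 on array 3 (10.1% of loci). The shift of the list on array 2 was thus also seen in ranks, and on array 3 the node genes and PR2 stood in the low part of the array.

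**Figure D3:**
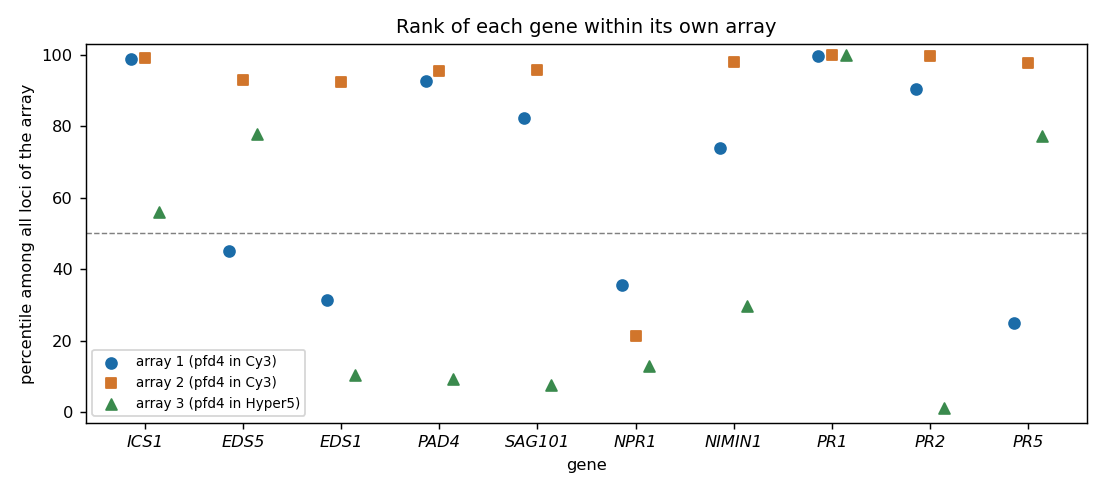
Percentile of each gene among all 29030 loci of the same array (vertical axis) for the 10 genes (horizontal axis), with 1 point per array and a dashed line at the median. PR1 is above percentile 99 on 3 of 3 arrays, and the EDS1, PAD4 and SAG101 points of array 3 lie at or below 10.3.

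Array 3 is also the one with exchanged dyes. With pfd4 in Cy3, the mean of arrays 1 and 2 was 0.29 for EDS1, 0.71 for PAD4, 0.61 for SAG101 and 1.23 for PR2. With pfd4 in Hyper5 the same genes had -0.42, -0.45, -0.51 and -1.1. PR1 had 1.895 in the first orientation and 1.48 in the second, EDS5 0.36 and 0.23, and PR5 0.48 and 0.225. Averaged over both orientations with equal weight, PR1 stood at 1.69 and ICS1 at 0.64, while PR2 (0.07), SAG101 (0.05) and EDS1 (-0.07) were close to 0. Only 1 array carries the second orientation, so dye and array cannot be told apart.

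**Figure D4:**
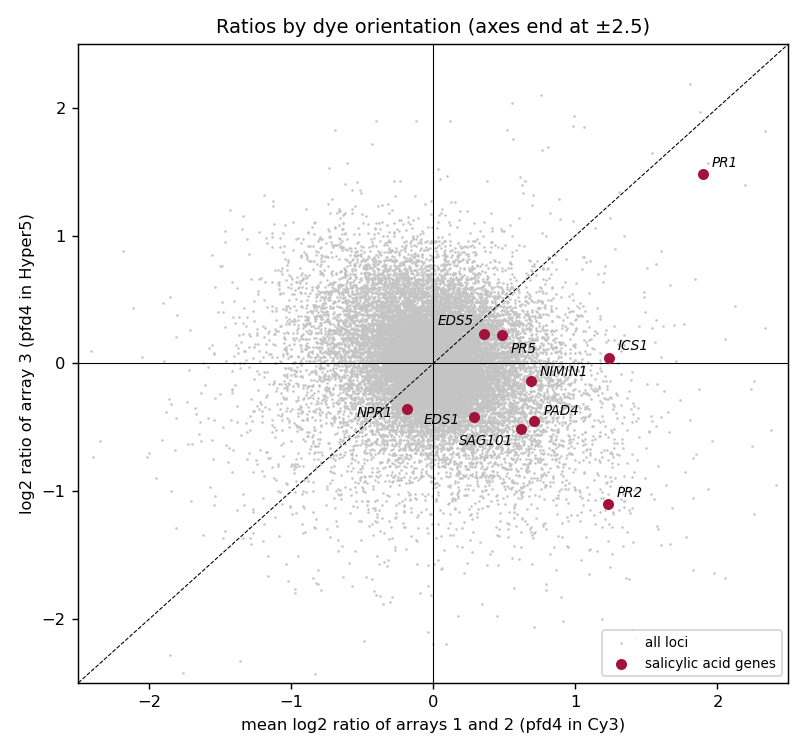
Log2 ratio of array 3, with pfd4 in Hyper5 (vertical axis), against the mean log2 ratio of arrays 1 and 2, with pfd4 in Cy3 (horizontal axis), for all loci in grey and the 10 genes in red. PR1 at 1.895 and 1.48 lies near the dashed line of equal values, and PR2 at 1.23 and -1.1 lies in the quadrant of opposite signs together with EDS1, PAD4, SAG101 and NIMIN1.

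Close relatives were set beside the genes because a spot can take up the transcript of a similar gene, and no probe sequences were used here. EDS1 has a tandem relative, AT3G48080, annotated as a lipase class 3 and disease resistance related protein. Its ratios were -0.08, 1.12 and 0.03. Like EDS1, which had 0.72 there, it was above 0 on array 2, while on array 3 EDS1 had -0.42. How far the spots of either gene measure both genes was not tested. PRB1, a basic relative of PR1, had 0.13, -0.01 and 0.04, so the ratio of PR1 was not shared by its relative on any array. The beta-1,3-glucanase genes BG1 (0.05, -0.25 and 0.19) and BG3 (-0.59, 0.435 and 0.335) were above 0 on array 3, where PR2 had -1.1. ATLP-3 (AT1G75030), a thaumatin-like relative of PR5, had -0.93, -2 and 0.95, and AT1G75050, annotated as similar to it, -0.36, -0.18 and 0.14, so that both had the sign opposite to PR5 on array 2. ICS2, the minor isochorismate synthase, had 0.06, 0.1 and -0.48. AT2G21340, annotated as an enhanced disease susceptibility protein, had 0.46, 0.16 and -0.35.

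The other genes of the pathway were taken from 7 lists of 59 genes, none of which passed over all loci. At an unadjusted p under 0.05, 5 of the 59 were higher (SARD1, NIMIN2, WRKY46, WRKY54 and WRKY70) and 1 was lower (WRKY53), against 2.14% and 2.58% of all loci. WRKY46 and WRKY54 are named here after their values were seen. SARD1, NIMIN2, WRKY54 and WRKY70 rest on 1 spot each, and WRKY46 and WRKY53 on 2 each. The median of the 59 means was 0.06.

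Of the 9 genes of salicylic acid synthesis and its control, 6 had a mean above 0, and the median was 0.09. SARD1, a factor that binds the ICS1 promoter, was the highest, with 0.96, 2.37 and 0.61 and a mean of 1.31 ± 0.93 (SD, n = 3; unadjusted p = 0.0184 and adjusted p = 0.887 in limma). It was above 0 on all 3 arrays, in the order of arrays that ICS1 also showed. CBP60G, the close relative that acts with SARD1, had 0.92, 0.07 and -0.61. CAMTA3, a repressor of these genes, was the lowest, at -0.23 ± 0.22, and PBS3, which conjugates isochorismate with glutamate on the way to salicylic acid, had 0.49, 1.665 and 0.165. CBP60G and PBS3 were picked for their role after their values were seen.

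Genes that modify salicylic acid centred below 0, with a median of -0.13 and 3 of 8 means above 0. MES1, an esterase that frees salicylic acid from its methyl ester, was the highest at 0.29 ± 0.11 (SD, n = 3), and UGT74F2, a glucosyltransferase that conjugates it, the lowest at -0.56 ± 0.63. Among the partners of the EDS1 node, 3 of 7 means were above 0. The highest was AT3G48080 at 0.36 ± 0.66, and the lowest was ADR1, a helper receptor that works with EDS1 and PAD4, at -0.45 ± 0.44. No gene of these lists passed an unadjusted p of 0.05.

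Of the 13 relatives and partners of NPR1, 10 had a mean above 0, with a median of 0.07. NIMIN2, another protein that binds NPR1 and responds early to salicylic acid, had 0.55, 0.55 and 0.54, the smallest SD among the 59 genes (mean 0.55 ± 0.01, SD, n = 3; unadjusted p = 0.00632 and adjusted p = 0.887 in limma). NIMIN3 was the highest of the list, with 1.31, 1.47 and -0.36, and TGA3, a bZIP factor that binds NPR1, the lowest at -0.07 ± 0.30. The receptors NPR3 (0.51, 0.81 and -0.8) and NPR4 (-0.25, 0.57 and -0.11), which repress the same genes, and AT4G26120 (0.41, -0.24 and -0.22), annotated as an ankyrin repeat and BTB/POZ protein, changed sign between arrays.

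The WRKY transcription factors linked to salicylic acid had the highest list median, 0.58, with 6 of 9 means above 0. WRKY70, which promotes salicylic acid responses and curbs jasmonate responses, had 0.42, 2.27 and 1, a mean of 1.23 ± 0.95 (SD, n = 3; unadjusted p = 0.0244 and adjusted p = 0.887 in limma). Its close relative WRKY54 had 0.27, 1.35 and 0.75, and WRKY46 had 1.46, 0.815 and 1.06. Of the 9 genes, these 3 alone were above 0 on each array, array 3 included, where 12.3% of all loci were. WRKY53, known from leaf senescence and also from defence, went the other way on each array, with -0.97, -1.755 and -2.33 and a mean of -1.685 ± 0.68 (unadjusted p = 0.00239 and adjusted p = 0.887 in limma). The rest of the list changed sign between arrays.

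Genes of systemic acquired resistance, the spread of resistance through the plant, had a median of 0.07 with 4 of 5 means above 0. ALD1, which starts the synthesis of the signal pipecolic acid, was the highest at 0.51 ± 0.77 (SD, n = 3), with 1.39 on array 1, and AZI1, a lipid transfer protein, the lowest at -0.05 ± 0.31. The relatives of the PR genes had a median of -0.16, with 2 of 8 means above 0, from -0.66 ± 1.49 for ATLP-3 to 0.06 ± 0.57 for BG3.

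**Figure D5:**
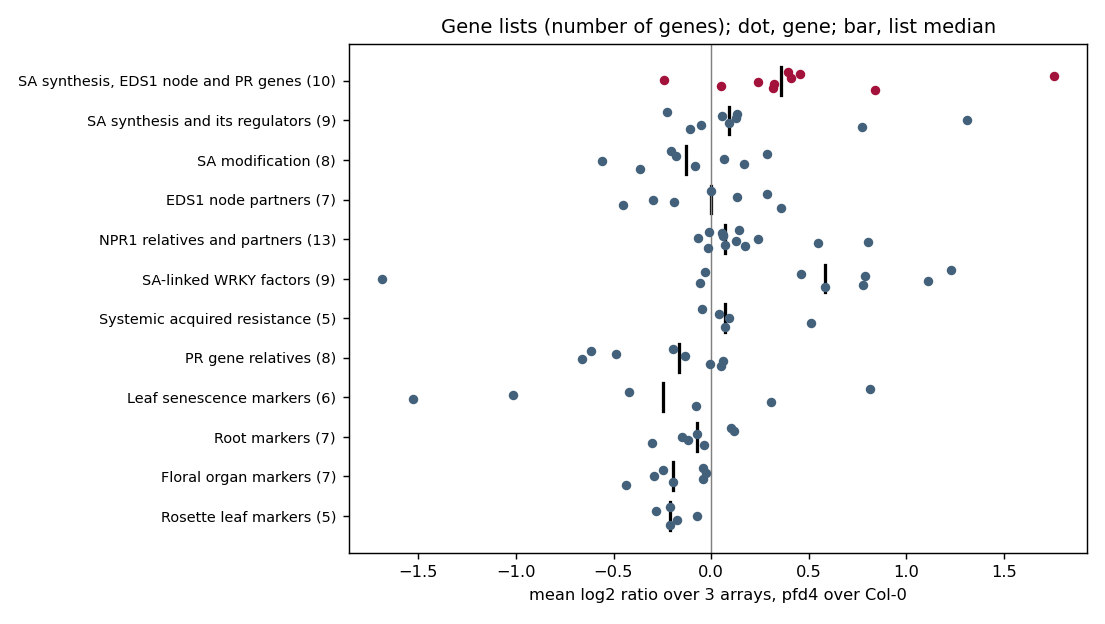
Mean log2 ratio of pfd4 over Col-0 over 3 arrays (horizontal axis) for each gene of the 10 followed here (red), of 7 pathway lists and of 4 marker lists (blue), with the list median as a black bar. The medians are 0.36 for the 10 genes, 0.58 for the WRKY factors and -0.16 for the relatives of PR genes, and PR1 at 1.76 is the gene farthest to the right.

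Markers of other organs and stages were read beside these values. Of 6 leaf senescence markers 2 had a mean above 0, and their medians were -0.06, -0.16 and -0.215 on the 3 arrays. NAP, a senescence regulator, was the lowest with -0.155, -3.085 and -1.34, SWEET15, a sugar transporter of senescing leaves, the highest with 1.01, 0.6 and 0.83, and SAG12, the defining protease, lay at -0.08 ± 0.14 (SD, n = 3). Rosette leaf markers (5 genes) had medians of -0.08, -0.78 and 0.22. Above 0 were 0 of 5 on array 2, against 51% of all loci, and 5 of 5 on array 3, against 50.2%. Root markers (7 genes) had medians of -0.04, -0.27 and 0.23, and floral organ markers (7 genes) -0.22, -0.27 and -0.08. The medians of the rosette leaf, root and floral organ lists were all highest on array 3 and lowest on array 2, the reverse of the 10 genes. The part of these differences in the values of the 10 genes was not tested.

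Likeness was measured as the Euclidean distance between the 3 ratios of a locus and those of PR1 or ICS1 on the log2 scale, over 3 arrays and all loci. Nearest to PR1 were UF3GT (AT5G54060, distance 0.67, with 1.11, 2.76 and 1.57), AT2G16367, annotated as a defensin-like protein (0.77), LURP1 (0.93, with 0.935, 2.2 and 0.775), PYL4 (0.95) and AT3G25795, annotated as other RNA (0.97). Nearest to ICS1 were ORG4 (0.16, with 0.9, 1.52 and -0.1), AT2G43630 (0.17), AT5G24200, annotated as a triacylglycerol lipase (0.24), AT5G53940 (0.24) and AT3G28510 (0.25). With 3 arrays such distances describe closeness of values and nothing further.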

How the data were processed

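RNA of pfd4 and Col-0 plants was compared on 3 dual-dye arrays, which form 1 group. Each deposited value is a log2 ratio of a spot, normalized by the authors with limma, per the submitters' processing notes; the sources used here give no version, background correction or numerator, and base 2 was assumed because limma writes log2 ratios. The deposited annotated table and the deposited series table held the same values at all 45220 spots. No intensities were used, so no filter on dim spots was run.

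Spots were averaged per locus and array. Every locus was fitted with limma 3.58.1 in R 4.3.3 (lmFit and eBayes, mean against 0, two-sided, 2 residual and 2.68 prior degrees of freedom), with Benjamini-Hochberg adjustment over 29030 loci and a threshold of 0.05. Intervals are limma's 95% intervals. The fit was run on simulated data with normal noise that was independent between arrays and alike in spread on each. The simulation did not imitate the correlations between these arrays, the wider spread of array 2 or the exchanged dyes. Genes and lists were chosen with earlier results of these data known. Named were all 10 genes, PFD4, their close relatives, the highest and lowest of each list, and the 5 loci nearest to PR1 and ICS1; WRKY46, WRKY54, CBP60G, PBS3, SAG12, PR3, PR4 and PDF1.2A fall outside this rule and were named after their values were seen. Symbols came from the deposited annotation and RefSeq's TAIR10.1 gene table; no coordinates or sequences are given. Alternatives were leaving out each array, median or first spot, a dye term, a common spread, array weights, array 3 with its sign turned, and the series table.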

Additional observations from a re-analysis of the deposited data

How the results depend on the processing

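Under all 10 alternatives, 0 of the 10 genes and 0 of all loci passed an adjusted p of 0.05 in limma, while 476 to 3878 loci, against 1372, had an unadjusted p under 0.05. Of the 100 recomputed means of the 10 genes, 96 kept their direction, and the other 4 reversed, 3 of them without replicate 2. Not all of the 100 were free to move. The series table holds the same values, so its 10 means had to stay as they were. The 4 genes with 1 spot have one value by mean, median or first spot, and for genes with 2 spots the median is the mean. With a replicate left out, PR2 ranged from -0.33 (without replicate 2) to 1.23, EDS1 from -0.283 to 0.287 and SAG101 from -0.115 to 0.613. With a dye term EDS1 had -0.0667. PR1 ranged from 0.77, with the sign of array 3 turned (unadjusted p = 0.34), to 1.895, without replicate 3 (adjusted p from 0.334 to 0.999), and ICS1 from 0.505, without replicate 2, to 1.235, without replicate 3. The median of the 10 means was 0.02 without replicate 2, with 6 means above 0, and 0.20 with a dye term, with 8. Genes with one sign on all arrays used numbered 3, and 4 with the sign of array 3 turned. They numbered 4 to 7 when a replicate was left out, where fewer arrays have to share the sign. With the first spot they were again 3, but EDS5 took the place of ICS1. At an unadjusted p under 0.05, 2 of the 10 genes became 1 without replicate 1, without replicate 2 and with the first spot, and 4 without replicate 3 and with array 3 turned. Among all 29030 loci, 1372 became 1103, 476 and 1218 in the first 3 of these settings. Without replicate 3 they became 3724, and with array 3 turned 3878. ICS1 had an unadjusted p of 0.181 without replicate 1, 0.163 without replicate 2 and 0.0545 with the first spot. The cause was not tested. The ratio within an array already pairs the genotypes, so that no further block was fitted.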

Other observations

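Of the relatives of the PR genes, 3 that are known to answer to jasmonate or ethylene were read as well. PR4, a hevein-like protein, had -0.21, -1.66 and 0.03 on the 3 arrays (-0.61 ± 0.91, SD, n = 3). The basic chitinase gene PR3 had -0.465, -0.935 and -0.065 and the defensin gene PDF1.2A 0.31, -0.35 and -0.54. PR3 was below 0 on each array, PR4 on arrays 1 and 2, and none of the 3 passed an unadjusted p of 0.05 in limma (adjusted p from 0.887 to 0.932). These genes were picked from the list of PR gene relatives after their values were seen.

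The array also carries spots for transcripts without a locus code whose annotation names NPR1 or EDS5. The NPR1 spot had -0.19, -0.2 and 0.01 and the EDS5 spot 0.17, 0 and 0.17. The EDS5 spot thus lacked the value of 0.755 that the locus had on array 2, and the NPR1 spot was at about 0 on array 3, where the locus had -0.36. These spots entered no test.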
